A study of Bos taurus with 14 samples.

Results

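The genes described here encode the enzymes that remove reactive oxygen species and the thiol systems that supply them, in adult bovine skeletal muscle. They were taken from the deposited count table by symbol: glutathione peroxidases (GPX), peroxiredoxins (PRDX), genes starting with TXN (thioredoxins, thioredoxin reductases and relatives), glutathione transferases (GST of the classes A, K, M, O, P, T and Z, and MGST), the superoxide dismutases SOD1, SOD2 and SOD3, and CAT, GSR, GCLC, GCLM, NQO1 and HMOX1. That rule found 57 of 18078 gene rows, and all 57 held at least 1 read. A filter on low counts kept 49 of them, out of 12187 genes kept in all. Some symbols starting with TXN belong to proteins that share only the thioredoxin fold, such as TXNL4A, a part of the spliceosome, so the set is wider than antioxidant defence.

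RNA was sequenced from longissimus dorsi, a large back muscle, in 14 female cattle (Bos taurus) at postnatal day 485. The dams of 7 animals (restricted) had been fed below their nutrient requirement from gestational day 158 to birth, and those of the other 7 (control) had been fed 100% of it. The labels give the restricted level as 70% in one place and 50% in another, so no level is used here. All calves were reared alike after birth, with feed ad libitum from day 301. The comparison therefore asks for a lasting difference between adults that were under the same feeding scheme. How much each animal ate is not among the values used here. The labels do not say if any of the animals were related, and the p-values measure the spread between animals. Total counts ran from 13631018 to 17325779 per animal, and the 57 genes held 0.371% to 0.467% of them. Fibre genes were abundant as the tissue label requires, with MYH1, the fast myosin of type IIX fibres, at a mean of 55840 CPM (counts scaled to a common library size). The 8 neutrophil markers summed to 0.476 to 1.92 CPM in restricted and 0.893 to 1.83 CPM in control animals. The summed erythroid markers ranged from 1.22 to 20.8 CPM in restricted and from 1.39 to 5.77 CPM in control animals. Restricted 4, restricted 7 and control 7 stood apart in earlier results of these data; without these 3 the count of members called between diets was also 0 and the members' median log2 fold change was -0.02.

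Superoxide made by mitochondria and by oxidases is turned into hydrogen peroxide by superoxide dismutases, and the peroxide is then removed by catalase, glutathione peroxidases and peroxiredoxins. Glutathione peroxidases draw their electrons from glutathione, which GCLC and GCLM begin to make and GSR regenerates, while peroxiredoxins are mostly recharged by thioredoxin and its reductases. Glutathione transferases join glutathione to reactive and foreign compounds. Contracting muscle makes reactive oxygen species continuously, and many of these genes are induced through the transcription factor NRF2 (gene NFE2L2), which KEAP1 holds in check.

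Levels between genes were compared as CPM per kilobase of gene length, which corrects for longer genes collecting more reads. The ranking and the shares therefore depend on the annotated lengths. The more abundant of the 2 rows named GSTM1 (ENSBTAG00000017765), with a length of 8060 bases, had a mean of 262 CPM but 32.4 CPM per kb. TXNIP, which binds thioredoxin and restrains glucose uptake, stood first at 418 ± 99.7 CPM per kb (SD, n = 14). The next were the peroxiredoxins PRDX6, at 159 ± 18.7, and PRDX2, at 157 ± 29.2 CPM per kb, which did not differ beyond their spread. PRDX3, the mitochondrial peroxiredoxin, was at 133 ± 10.6 CPM per kb, and SOD1, the copper and zinc dismutase of the cytosol, at 123 ± 15.9 CPM per kb, again within each other's spread. Together the 6 peroxiredoxins made up 27.5% ± 1.77 of the summed level of the 57 genes (SD, n = 14), the 6 genes of the thioredoxin system 25.3% ± 3.87, and the 17 rows of soluble glutathione transferases 10.4% ± 1.68. Most of the thioredoxin system's share was TXNIP. In that system TXN stood at 65.0, TXN2 at 58.6, TXNRD1 at 11.9, TXNRD2 at 5.80 and TXNRD3 at 2.44 CPM per kb. The 3 genes of glutathione synthesis and recycling made up 0.634% ± 0.0669.

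**Figure D1:**
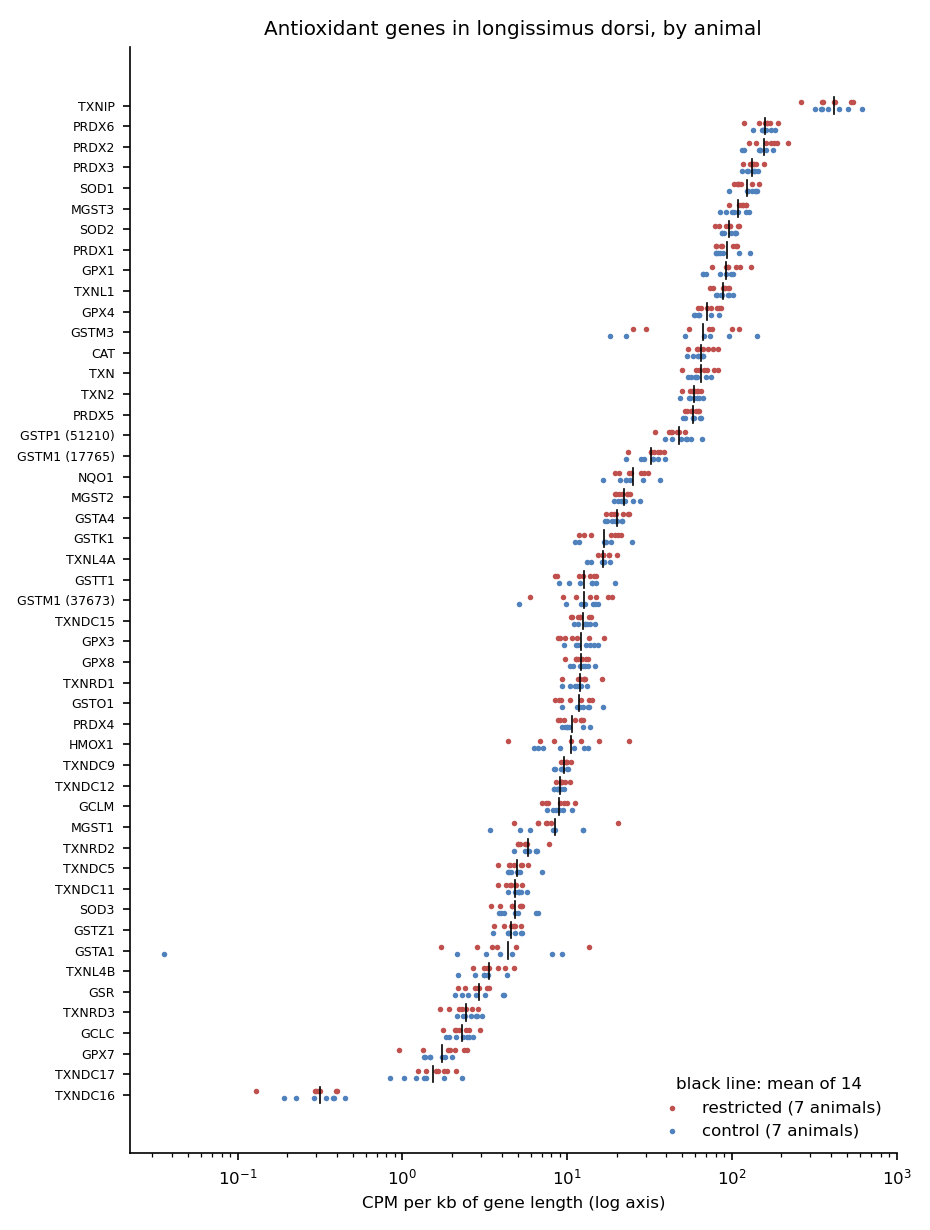
Each row is 1 of the 49 genes kept by the filter and each point 1 animal, as CPM per kb of gene length on a log axis, restricted (red) above control (blue), with the mean of 14 animals as a black line. Levels run from TXNIP, with a mean of 418, to TXNDC16, with a mean of 0.314, and the colours overlap in every row; GSTA1 was at 0 in restricted 3, which a log axis cannot show, and digits after a name are the last ones of its row identifier.

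Within each family, 1 to 3 members held most of the signal, and these were the same members in both diets. Of the summed CPM per kb of the dismutases, SOD1 held 53.9% ± 4.16 in restricted and 55.6% ± 3.05 in control animals (SD, n = 7 each), mitochondrial SOD2 held 44.0% ± 4.05 and 42.2% ± 2.82, and the extracellular SOD3 2.14% ± 0.409 and 2.20% ± 0.569. Among the 5 glutathione peroxidases found, GPX1, the cytosolic selenoenzyme, held 50.1% ± 4.62 in restricted and 46.9% ± 3.84 in control animals. GPX4, which reduces lipid peroxides in membranes, held 37.3% ± 4.08 and 37.8% ± 2.56, and GPX3, the secreted form, 5.86% ± 2.14 and 7.31% ± 1.32. In the thioredoxin reductases, the cytosolic TXNRD1 held 60.8% ± 2.98 in restricted and 57.1% ± 2.31 in control animals, with mitochondrial TXNRD2 at 27.9% ± 1.26 and 29.8% ± 2.23. MGST3 made up 78.9% ± 3.03 of the membrane-bound transferases in restricted and 77.5% ± 2.11 in control animals, against 5.995% ± 3.23 and 5.82% ± 2.09 for MGST1. Each of these differences between diets was smaller than the sum of the 2 SDs, which describes the spread of animals and is no test. GPX8 held 5.90% ± 0.558 of the glutathione peroxidases in restricted and 7.07% ± 0.881 in control animals. MGST2 held 15.1% ± 1.48 of the membrane-bound transferases in restricted and 16.7% ± 0.816 in control animals. The shares were not tested, so whether any of them differed with diet was not decided.

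The main comparison asked whether any of these genes differed in adult muscle with the feeding of the dam. No gene was called: in edgeR's quasi-likelihood F test, 0 of 49 members passed an adjusted p of 0.05 (Benjamini-Hochberg over the 12187 genes), against 0% of all genes tested, and the adjusted p of each member rounded to 1.0. At an unadjusted p under 0.05 there was 1 member, GPX1, against 4.25% of all genes. That count ran from 0 (without restricted 5, control 2 or control 7) to 4 (without restricted 4) when 1 animal was left out. It was 0 with the first letter of the titles, whose meaning is not given, as covariate, and 2 with the last letter. Library size scaling also gave 2, as did leaving out restricted 4, restricted 7 and control 7 together. Only titles starting with Y gave 0. The median log2 fold change, restricted over control, was -0.01 over the 49 members and 0.00 over all genes, with 23 members above 0 and 26 below (49.7% of all genes were above 0). The members ran from -0.23 for GSTP1 to 0.31 for HMOX1 on that log2 scale. No member had groups that did not overlap, against 0.0574% of all genes. The 95% interval excluded a 1.5-fold difference in both directions for 41 of 49 members (77.8% of all genes). The exceptions were GSTA1, GSTM3, MGST1, HMOX1, GPX7, TXNDC16, TXNDC17 and the less abundant of the 2 rows named GSTM1. A 2-fold difference was excluded for every member tested except GSTA1 (95.3% of all genes).

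**Figure D2:**
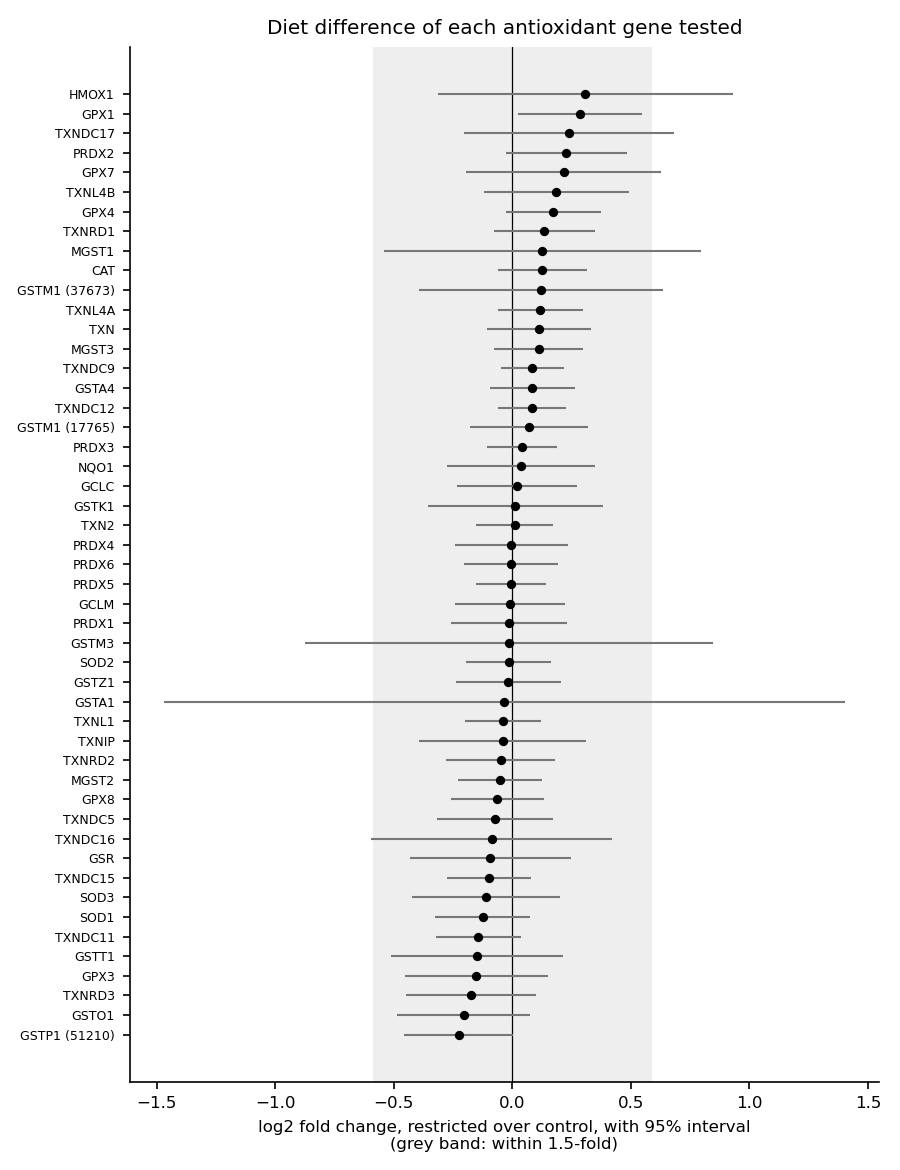
Points are log2 fold changes, restricted over control, and lines their 95% intervals for the 49 genes tested, ordered by fold change, with a grey band for differences within 1.5-fold. The points lie between -0.23 and 0.31, and the interval of GSTA1 is the widest, reaching past 1 in both directions.

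Superoxide dismutases and catalase showed little between diets. SOD1 ranged from 103 to 144.3 CPM with a median of 110.1 in restricted animals, and from 95.3 to 141 CPM with a median of 131 in control animals. The ranges overlapped, 5 of 7 restricted animals lay below the control median, and the ratio was 0.917 (95% interval 0.798 to 1.05). SOD2 had a lowest, median and highest value of 169.5, 208 and 237 CPM in restricted, against 186, 211 and 228 CPM in control animals, so the restricted range enclosed the control one, with a ratio of 0.989 (0.874 to 1.12). For SOD3 the values were 4.56, 6.16 and 7.03 CPM in restricted and 5.13, 6.37 and 8.86 CPM in control animals, a ratio of 0.926 (0.746 to 1.15). CAT, the peroxisomal catalase, lay between 189.8 and 289 CPM (median 236) in restricted and between 187 and 236 CPM (median 221) in control animals. Its ratio was 1.09 (0.958 to 1.24), and 3 of 7 restricted animals remained below the control median.

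Among the glutathione peroxidases, GPX1 had the smallest p of all members. It ranged from 72.9 to 126 CPM with a median of 91.4 in restricted animals, and from 64.2 to 98.1 CPM with a median of 81.2 in control animals. The groups overlapped, although 6 of 7 restricted animals lay above the control median, with a ratio of 1.22 (95% interval 1.02 to 1.46) and an edgeR unadjusted p of 0.0345, which did not pass adjustment and ran from 0.0107 to 0.252 over the alternatives. GPX4 followed a similar order, with 57.3, 68.6 and 79.6 CPM as lowest, median and highest in restricted, against 54.0, 58.0 and 76.9 CPM in control animals. Again 6 of 7 restricted animals exceeded the control median and the ranges overlapped, with a ratio of 1.13 (0.981 to 1.29). In the animals whose titles end in A, a letter of unknown meaning, the log2 fold change of GPX4 was -0.03, against 0.17 in all 14. GPX3 was lower in its median, at 17.03 CPM (14.1 to 26.7) in restricted against 20.6 CPM (15.3 to 24.5) in control animals, with a ratio of 0.900 (0.730 to 1.11). The GPX7 and GPX8 proteins of the endoplasmic reticulum had ratios of 1.16 (0.874 to 1.54) and 0.956 (0.835 to 1.09).

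**Figure D3:**
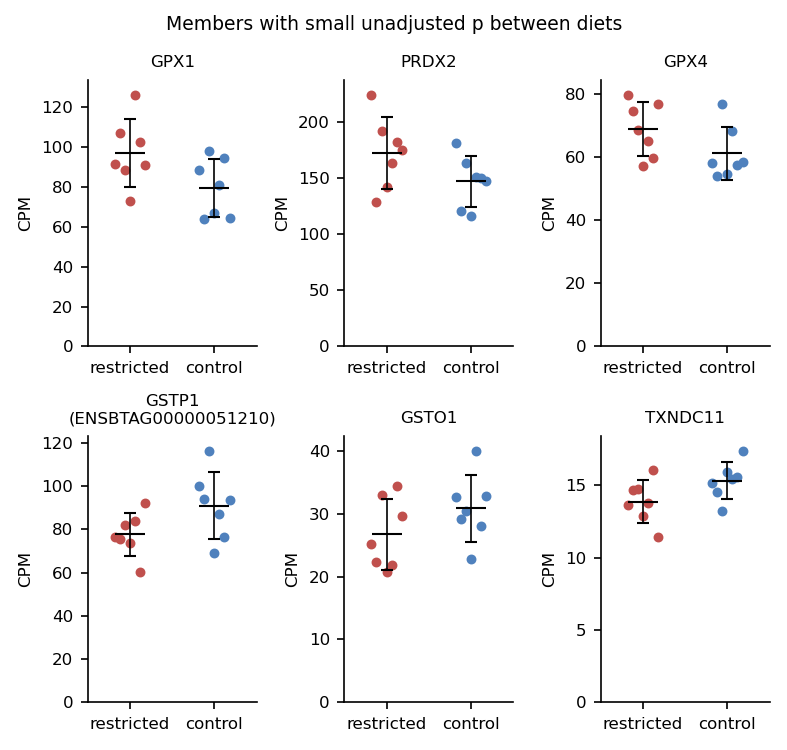
CPM of the 3 members with the smallest unadjusted p in each direction between diets, 1 point per animal, with the mean and SD of 7 restricted animals (left) and 7 control animals (right). GPX1, PRDX2 and GPX4 have higher means in restricted animals and GSTP1, GSTO1 and TXNDC11 lower ones, and the points of the diets overlap in each panel.

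None of the 6 peroxiredoxins was called either. PRDX6, the 1-cysteine member that also acts as a phospholipase, had a lowest, median and highest value of 201, 276 and 325 CPM in restricted and of 229, 264 and 312 CPM in control animals. The ranges overlapped and the ratio was 0.996 (0.869 to 1.14). PRDX3 ran from 193 to 257 CPM (median 222) in restricted and from 191 to 236 CPM (median 223) in control animals, with a ratio of 1.03 (0.929 to 1.14). PRDX2, the cytosolic form that is also abundant in red blood cells, was the member of this family with the smallest p, at 128 to 224 CPM (median 174) in restricted and 116 to 181 CPM (median 149) in control animals. The ratio was 1.17 (0.981 to 1.40) with an edgeR unadjusted p of 0.0768, and 2 restricted animals lay below the control median. HBB, the beta-globin gene, ranged from 0.0680 to 19.2 CPM in restricted, highest in restricted 3, and from 0.301 to 4.32 CPM in control animals, and its part in the PRDX2 values was not tested. For PRDX1, PRDX4 and PRDX5 the ratios were 0.991, 0.997 and 0.996.

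In the thioredoxin system, TXNIP differed more between animals than between diets, with 753, 1188 and 1549 CPM as lowest, median and highest in restricted, against 911, 1096 and 1769 CPM in control animals. The ranges overlapped, with restricted 7 the lowest animal, and with a ratio of 0.972 (0.761 to 1.24). TXN, the cytosolic thioredoxin, ranged from 29.8 to 49.2 CPM (median 40.8) in restricted and from 32.3 to 45.1 CPM (median 36.5) in control animals, a ratio of 1.08 (0.928 to 1.26). For its reductase TXNRD1 the values were 32.9 to 57.1 CPM (median 44.4) in restricted and 32.6 to 46.2 CPM (median 40.2) in control animals. There 6 of 7 restricted animals exceeded the control median, the ratio was 1.10 (0.947 to 1.27), and the log2 fold change was 0.06 without restricted 1 in place of 0.13. TXN2, the mitochondrial thioredoxin, had a ratio of 1.01 (0.900 to 1.13). TXNRD3 leaned the other way, at 3.02 to 5.15 CPM (median 4.13) in restricted and 3.83 to 5.48 CPM (median 4.70) in control animals, with overlapping ranges and a ratio of 0.885 (0.732 to 1.07). Of the 10 tested relatives with a thioredoxin fold, 5 had a ratio above 1 and 5 below, none called. The smallest p among them belonged to TXNDC11, at 11.4 to 16.0 CPM (median 13.7) in restricted and 13.2 to 17.35 CPM (median 15.4) in control animals, a ratio of 0.905 (0.800 to 1.02).

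Glutathione supply was likewise similar. GCLC, the catalytic subunit of the enzyme that starts glutathione synthesis, had a median of 8.50 CPM (6.84 to 11.5) in restricted and 9.06 CPM (7.14 to 10.3) in control animals. GCLM, its modifier subunit, had medians of 14.5 CPM (11.3 to 17.8) and 14.2 CPM (12.1 to 17.2), and GSR, which regenerates reduced glutathione, 6.73 CPM (5.10 to 7.91) and 6.56 CPM (4.90 to 9.75), in restricted and control animals in that order. The ratios were 1.01 (0.851 to 1.21), 0.994 (0.846 to 1.17) and 0.938 (0.742 to 1.19). NQO1, a quinone reductase and standard NRF2 target, was at 30.2, 37.9 and 48.1 CPM in restricted, against 25.8, 35.5 and 56.9 CPM in control animals (lowest, median, highest), a ratio of 1.02 (0.825 to 1.27). The control range enclosed the restricted one.

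Glutathione transferases are a large family, and 7 of the 8 members under the filter belonged to it. These were GSTA2, GSTA3, GSTA5, GSTO2, GSTT2, GSTT4 and a second row named GSTP1 (ENSBTAG00000003548), with TXNDC2 as the eighth, and their totals over all 14 libraries ran from 1 read for GSTA5 to 143 reads for GSTT2. Counts of such paralogs can be split or shared by near-identical sequences, so single rows of this family are uncertain. The abundant GSTP1 row (ENSBTAG00000051210), the pi-class enzyme, ranged from 60.2 to 92.1 CPM (median 76.3) in restricted and from 69.1 to 116 CPM (median 93.3) in control animals. All 7 restricted animals lay below the control median, although the ranges overlapped, with a ratio of 0.855 (0.729 to 1.003) and an edgeR unadjusted p of 0.0540. GSTO1, an omega-class enzyme with thioltransferase activity, stood at 20.7 to 34.3 CPM (median 25.2) in restricted and 22.7 to 39.9 CPM (median 30.4) in control animals, a ratio of 0.867 (0.714 to 1.05). The main GSTM1 row (ENSBTAG00000017765) ranged from 189 to 312 CPM (median 270.1) in restricted and from 184 to 315 CPM (median 268) in control animals, a ratio of 1.05 (0.883 to 1.25), so its ranges nearly coincided.

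These genes differed among themselves in how much they varied between animals, much as all genes tested did. The SD of log2 CPM over the 14 animals had a median of 0.211 over the 49 members and 0.231 over all genes tested, and 22 of 49 members lay above the median of all genes. At the steady end were TXNDC12 and TXNDC9, with SDs of 0.0860 and 0.0957 at percentiles 1.08 and 2.25 of all genes, and PRDX3 and PRDX5 at percentiles 6.45 and 6.83. At the other end 5 members lay above percentile 90: GSTA1, GSTM3, MGST1, HMOX1 and the second GSTM1 row (ENSBTAG00000037673). Below percentile 10 there were 4, so both ends held about the share that percentiles give for all genes.

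GSTA1, an alpha-class transferase with high activity in liver, was the most variable, with an SD of 2.16 at percentile 99.9. It ranged from 0 to 21.96 CPM with a median of 5.65 in restricted and from 0.0583 to 15.1 CPM with a median of 6.31 in control animals. Restricted 3 had 0 reads and control 2 had 1 read, whereas the other 12 animals held 2.79 CPM or more. A count of 0 in restricted 3 allows up to 0.194 CPM (3 counts, counting error only), so the level in restricted 7 was at least 113-fold higher than in that library. In each diet, then, 1 animal had next to none of this transcript. In the RefSeq annotation of ARS-UCD2.0, a later assembly than the one used for counting, GSTA2, GSTA1, GSTA5, GSTA3 and GSTA4 follow one another with no other protein-coding gene between them. GSTA4, at the end of that row, was steady, with 34.0 to 47.0 CPM in restricted and 33.7 to 42.9 CPM in control animals.

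GSTM3, a mu-class transferase, spanned a 7.77-fold range. Its values were 31.8, 91.8 and 139 CPM in restricted and 23.1, 86.1 and 179.8 CPM in control animals (lowest, median, highest), and both extremes over all animals were controls. The second GSTM1 row varied 3.68-fold, at 7.68 to 24.0 CPM (median 17.8) in restricted and 6.54 to 19.9 CPM (median 16.5) in control animals, with its lowest values in restricted 6 and control 7. Neither row was called between diets: the ratios were 0.990 (0.545 to 1.80) and 1.09 (0.762 to 1.55). Both intervals left room for a 1.5-fold difference.

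HMOX1, which breaks down heme and is induced by oxidative stress, ranged from 10.9 to 59.1 CPM (median 26.3) in restricted and from 15.7 to 33.4 CPM (median 22.4) in control animals. Its ratio of 1.24 (0.804 to 1.90) rested on 1 animal, since the log2 fold change was 0.31 with all animals and 0.03 without restricted 1. Restricted 1 was also the highest of the 14 for PRDX2, PRDX3, SOD2, GPX4, TXN, TXNRD1, TXNRD2 and TXNL4B, so it held the highest value for 9 of 49 members (18.4%), against 7.75% of all genes. SRXN1, which repairs overoxidised peroxiredoxins and is no member, was likewise highest there, at 5.77 CPM against a median of 1.64 in restricted and 1.96 CPM in control animals. Other members were highest elsewhere: NQO1 and GSR in control 1, GCLM in restricted 4, GCLC in restricted 7 and PRDX1 in control 3. Control 3 held the highest value for another 9 members, against 8.16% of all genes. Control 4 held the lowest for 11 members (22.4%), against 5.67% of all genes, among them PRDX2, PRDX3, PRDX5, SOD1, TXN2 and MGST3. These counts are descriptions of single libraries and were not tested.

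**Figure D4:**
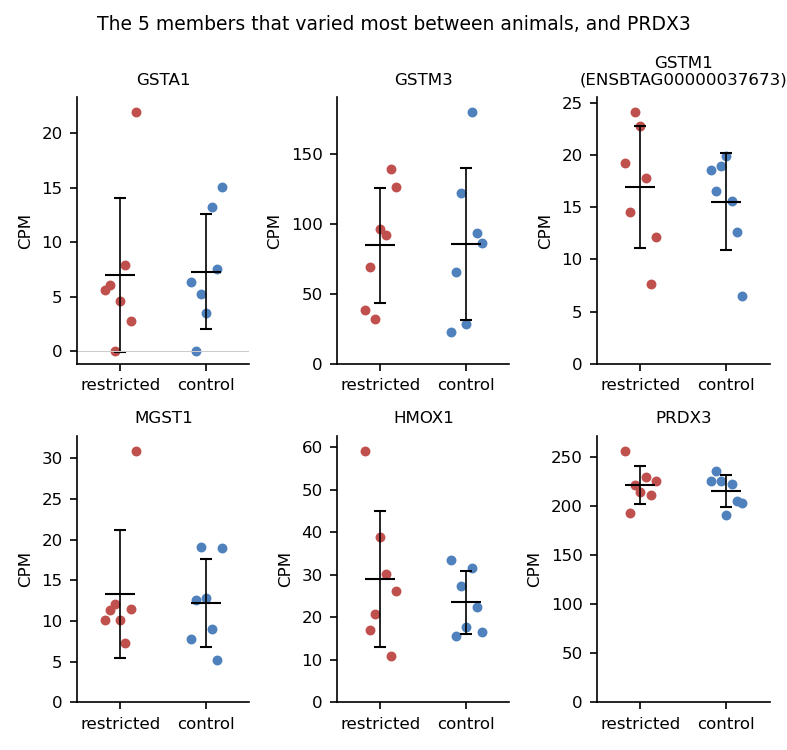
CPM per animal of the 5 members with the largest SD of log2 CPM, and of PRDX3 as a steady one, with mean and SD of 7 restricted animals (left) and 7 control animals (right). GSTA1 is near 0 in 1 animal of each diet, GSTM3 spans 23.1 to 179.8 CPM, MGST1 and GSTA1 are highest in restricted 7 and HMOX1 in restricted 1, while PRDX3 stays between 191 and 257 CPM.

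A further comparison asked how the members varied with the cells and fibres in each sample. Each animal was given a score, the mean log2 CPM of a list of marker genes, for slow fibres (12 genes), adipocytes (11 genes) and macrophages and monocytes (10 genes), and the slope of every gene on each score was fitted with diet in the model. With the adipocyte score 1 of 49 members was called, MGST1, against 0.279% of all genes, or 0.205% when the list's own genes are left out, and 3 members (MGST1, TXNL4B and GCLC) had an unadjusted p under 0.05, against 4.85% of all genes. With the slow fibre score 0 members were called (0.0985% of all genes, 0.0411% without the list's own) and 3 had an unadjusted p under 0.05 (6.21% of all genes). With the macrophage score 0 were called (0.263%, 0.222% without the list's own) and 1, SOD3, had an unadjusted p under 0.05 (8.05%). The calls over all genes with the macrophage score depended on single animals: there were 32 with all animals, 1 without restricted 7, 11 without restricted 1 or restricted 6, 12 without restricted 3 and 10 without control 1. With the slow fibre score there were 12 with all animals and 6 to 15 when 1 was left out.

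MGST1, a transferase and peroxidase of the endoplasmic reticulum and outer mitochondrial membrane, ranged from 7.24 to 30.9 CPM (median 11.3) in restricted and from 5.18 to 19.1 CPM (median 12.6) in control animals. The highest value was in restricted 7, which also had the highest adipocyte score (5.05), and the lowest in control 6, which had the lowest score (1.97). The slope was 0.83 ± 0.0916 log2 units of MGST1 per log2 unit of score (SE, 95% interval 0.63 to 1.02, edgeR adjusted p = 0.000174). Over the 14 animals Pearson's r was 0.920 (permutation p = 2e-05, 0.00294 after Benjamini-Hochberg adjustment over 147 relations) and Spearman's rho 0.974 (permutation p = 1e-05, the smallest possible, 0.00147 adjusted). Within diets r was 0.951 in restricted and 0.908 in control animals (n = 7 each), and it was 0.954 in the 11 animals with titles starting with Y and 0.905 in the 9 with titles ending in A. Correlations were computed over 6 or more animals, so none is given for the 3 animals of letter R and the 5 of letter B.

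Without the 2 animals farthest from the median score, restricted 7 and control 6, r was 0.865 and the slope 0.93, but the edgeR adjusted p was 0.218 (unadjusted 0.000165) among the remaining 12 animals, where 1 gene was called in all, against 34 with all animals. In bulk tissue, more fat cells and more RNA per fat cell cannot be told apart. Which cells the MGST1 reads came from was not tested. The adipocyte markers themselves moved widely, with FABP4, a fatty acid carrier, at 9.70 to 69.0 CPM in restricted and 2.92 to 69.2 CPM in control animals and ADIPOQ at 3.72 to 21.2 and 1.07 to 17.2 CPM. Between diets MGST1 had a ratio of 1.09 (0.687 to 1.74), and its log2 fold change was 0.13 with all animals and -0.23 without restricted 7. The related MGST3 and MGST2 were not called with that score, and MGST3 stayed at 118 to 150.1 CPM in restricted and 104 to 156 CPM in control animals.

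**Figure D5:**
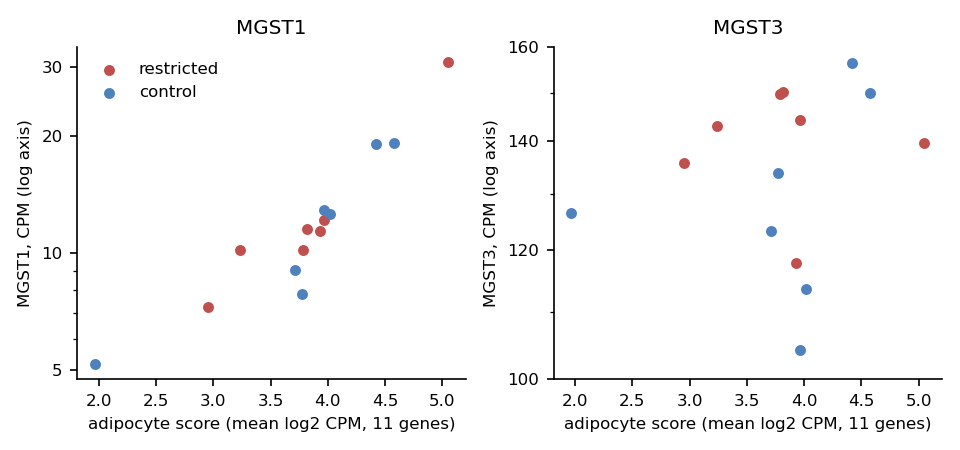
MGST1 (left panel) and MGST3 (right panel) in CPM on log axes against the adipocyte score, the mean log2 CPM of 11 marker genes, with 1 point per animal (restricted red, control blue). MGST1 is highest in restricted 7, at 30.9 CPM, and lowest in control 6, at 5.18 CPM, with r of 0.951 in restricted and 0.908 in control animals, while r of MGST3 over all 14 is 0.189.

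With the slow fibre score the smallest p-values belonged to TXNRD2, the mitochondrial reductase, with a slope of 0.36 ± 0.121, and PRDX2, with a slope of 0.40 ± 0.135 log2 units per log2 unit of score (SE). Their edgeR adjusted p was 0.657 each. TXNRD2 had a Pearson's r of 0.736 (permutation p = 0.002, 0.147 adjusted) and a Spearman's rho of 0.846 (permutation p = 0.00017, 0.0125 adjusted), and r was 0.602 without restricted 4 and control 2, 0.593 in restricted and 0.925 in control animals (n = 7 each), 0.637 in the 11 animals of letter Y and 0.713 in the 9 of letter A. For this gene the rank correlation passed adjustment over the 147 relations of members with scores, and Pearson's r did not. The fitted slope did not pass its own adjustment, which was over all 12187 genes. The 2 adjustments cover unlike sets, and correlations were not adjusted over all genes.

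The rest of the pathway was followed through 6 lists of genes outside the members. Of 102 genes found, 90 were tested and 0 were called between diets by edgeR, with 4 at an unadjusted p under 0.05 (FTH1, EEFSEC, SELENOO and XDH, a share close to the 4.25% of all genes) and a median log2 fold change of 0.02 over the 90. By list, the number with a ratio above 1 was 8 of 11 for NRF2 regulation, 11 of 18 for other NRF2 targets, 10 of 19 for other glutathione handling, 11 of 18 for selenoprotein synthesis and other selenoproteins, 2 of 9 for sources of reactive oxygen species and 12 of 15 for NADPH supply and protein repair, where 49.7% of all genes lay above 1. The median log2 fold changes of those lists were 0.02, 0.03, 0.02, 0.02, -0.16 and 0.05 in that order. Several marker lists leaned the same way as the sources of reactive oxygen species. A ratio above 1 was found for 1 of 10 smooth muscle and pericyte genes (median -0.17, 1 at an unadjusted p under 0.05). The same held for 3 of 12 endothelial (-0.12), 3 of 11 adipocyte (-0.07), 4 of 12 slow fibre (-0.06) and 4 of 10 fibroblast genes (-0.09). Other lists did not: 10 of 11 skeletal muscle fibre (0.11), 6 of 10 macrophage and monocyte (0.04), 3 of 4 T and NK cell (0.30) and 1 of 2 erythroid genes (0.57) lay above 1. The smooth muscle and pericyte genes summed to 244 to 328 CPM in restricted and 245 to 361 CPM in control animals, and the endothelial genes to 250.0 to 334 CPM in restricted and 242 to 382 CPM in control animals. The part of any of these cell types in the list of sources of reactive oxygen species was not tested. NFE2L2, the gene of NRF2, had medians of 80.5 CPM in restricted and 77.0 CPM in control animals, a ratio of 1.02 (0.883 to 1.19). KEAP1, its inhibitor, stood at 181.9 and 193.9 CPM, a ratio of 0.927 (0.838 to 1.03), and BACH1, the repressor of HMOX1, at 11.8 and 12.6 CPM, a ratio of 1.01 (0.827 to 1.22), restricted before control.

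Single genes of these lists showed the same overlap. FTH1, the ferritin heavy chain, had a lowest, median and highest value of 703, 944 and 1066 CPM in restricted and of 909, 1052 and 1368 CPM in control animals, a ratio of 0.851 (0.734 to 0.986, unadjusted p = 0.0339 by edgeR). XDH, the xanthine dehydrogenase that can produce superoxide, stood at 41.1, 59.0 and 95.7 CPM in restricted and 49.1, 74.4 and 175.2 CPM in control animals, a ratio of 0.649 (0.431 to 0.978). SELENOO, a mitochondrial selenoprotein, had a ratio of 0.789 (0.660 to 0.944), and EEFSEC, the elongation factor for selenocysteine, 0.836 (0.720 to 0.969). SELENOP, the selenium transport protein, had a ratio of 1.001 (0.844 to 1.19), and SRXN1 1.24 (0.735 to 2.08).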

How the data were processed

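The deposited table holds raw counts of reads per gene as the authors made them, with a gene length in bases and 1 column per animal. Per the submitters' processing notes, FastQC, HISAT2, featureCounts and edgeR were used with the build ARS-UCD1.2. The sources used here give no tool versions, annotation release, strand setting or rule for multiply aligned reads. Groups came from the treatment label.

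The test was edgeR 4.0.16 (R 4.3.3), after filterByExpr (minimum count 10, minimum total 15), scaling by the trimmed mean of M-values, with the quasi-likelihood F test, no covariates, and p adjusted by Benjamini-Hochberg over all 12187 genes. Each standard error is the absolute log2 fold change over the square root of F. CPM use the scaled library sizes; log2 CPM use a prior count of 2. Correlations were permuted 100000 times. Fits were tested on simulated data.

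The members, lists and tests were chosen with earlier results of these data known. Genes named were the 6 members of highest mean CPM, the 4 with the smallest p in each direction, the 5 with the largest SD, members called with a score, and a fixed list of antioxidant genes; SELENOW was not found under that symbol, and 1 further gene outside the members is not reported here. Other members, and the genes with an unadjusted p under 0.05, are named to complete counts and were chosen after their values were seen. The 2 rows named GSTM1 and the 2 named GSTP1 were kept apart. Of the RefSeq table (ARS-UCD2.0), 54 of 55 member symbols and 0 row identifiers matched; it served only for gene order. Every pair of libraries differed beyond sampling noise (chi-square over its degrees of freedom at least 12.0).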

Additional observations from a re-analysis of the deposited data

Results flagged for a closer look

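An animal was noted where its gap to the nearest other animal of its diet, divided by that diet's whole range, exceeded Dixon's 95% critical value for 7 animals. This picked out 7 of 98 groups examined (49 members in 2 diets), and chance alone picks out about 1 in 20. Restricted 7 accounted for 3 of the 7, being highest for MGST1 (30.9 CPM, next 12.1 CPM, gap 0.794 of the range) and GSTA1 (21.96 CPM, next 7.94 CPM, gap 0.639) and lowest for TXNDC16 (0.566 CPM, next 1.29 CPM, gap 0.611), the last on few reads. Restricted 1 was highest for TXNRD2 (13.1 CPM, next 9.66 CPM, gap 0.749), and restricted 6 was lowest for the main GSTM1 row (189 CPM, next 261 CPM, gap 0.585). Control 4 was lowest for SOD1 (95.3 CPM, next 124 CPM, gap 0.616). Control 3 was highest for TXNDC5, a disulfide isomerase of the endoplasmic reticulum (21.4 CPM, next 15.8 CPM, gap 0.697).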

How the results depend on the processing

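No paired analysis was possible because the animals of the 2 diets share no number in the labels. No member was called between diets in any of the 25 alternatives, and 616 of 675 values of the 27 named members kept their direction. Over all genes DESeq2 called 1 gene (MTSS1L), and the animals with titles ending in A gave 1 call (a gene without a symbol); restricting to these, or to titles starting with Y, was chosen after seeing the data. Leaving out 1 animal moved the median log2 fold change of members between -0.03 and 0.03. Under the other alternatives it ran from -0.06 to 0.01. The lowest came from titles ending in A, with 15 of 49 members above 0 and a median of 0.00 over all genes. Library size scaling gave -0.04, with 18 of 49 members above 0 and a median of -0.05 over all genes.

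The cause of the changes of sign was not tested. With library size scaling they were -0.0066 for PRDX3, -0.027 for GCLC and -0.0037 for NQO1. PRDX6 was at 0.0025 with every gene that has a read, 0.0081 with the last title letter as covariate and 0.0077 with titles starting with Y. The last letter as covariate also gave 0.00026 for SOD2 and 0.13 for GSTM3, which limma voom put at 0.066. Without restricted 4, restricted 7 and control 7, the values were -0.090 for MGST1, -0.031 for the GSTM1 row ENSBTAG00000037673 and -0.038 for GCLC. With titles ending in A they were 0.20 for TXNIP, -0.027 for GPX4, -0.24 for MGST1, -0.056 for HMOX1, -0.055 for TXN, -0.011 for GCLC and -0.096 for NQO1; titles starting with Y gave 0.026 for GCLM.

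Leaving out 1 animal gave ranges of -0.12 to 0.073 for TXNIP, -0.056 to 0.055 for PRDX6, -0.056 to 0.025 for SOD2, -0.23 to 0.27 for MGST1, -0.68 to 0.26 for GSTA1 and -0.18 to 0.27 for GSTM3. The ranges were -0.013 to 0.24 for the GSTM1 row ENSBTAG00000037673, -0.072 to 0.041 for GCLM, -0.054 to 0.073 for GCLC and -0.041 to 0.16 for NQO1. With the adipocyte score, 1 member was called under each alternative except without the 2 farthest animals, where 0 were called and the calls over all genes were 1, against 34 with all animals; leaving out 1 animal gave 23 to 39 calls over all genes. The MGST1 slope ran from 0.72 to 1.03 when 1 animal was left out. At this depth the least abundant members tested averaged 21.7 and 26.7 reads per animal, and their intervals left room for a 1.5-fold difference.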

Other observations

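A pair of rows without a symbol but described as glutathione transferases fell outside the rule. The row described as glutathione S-transferase Mu 1 (ENSBTAG00000012692) held 120 reads in all and was at 0 in 11 of 14 animals, reaching 2.89 CPM at its highest. The row described as glutathione S-transferase omega-1 (ENSBTAG00000038540) ranged from 3.49 to 14.4 CPM. Neither entered a comparison.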
